A study of Mus musculus with 6 samples.

Results

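The 37 genes described here encode proteins of the G2 phase, the spindle, the kinetochore and cytokinesis. They were taken by gene symbol from a table of gene counts for keratinocytes isolated from mouse skin. All 37 symbols matched 1 identifier each among the 45513 of the table, and all 37 were among the 15513 genes that passed the filter on low counts. The study compared 3 control and 3 knockout mice on a C57BL/6 background. In the knockouts both alleles of Lama3 carry loxP sites around exons 50 to 53. The exons are cut out by a Cre recombinase that tamoxifen activates and that the keratin 14 promoter expresses, which is active in the basal layer. According to the design text the controls carry the same Cre with 1 floxed and 1 wild-type allele, while their genotype label reads wild type. Cre was activated with chow holding 400 mg tamoxifen citrate per kg, and the text does not say in so many words that the controls were fed it too. The labels give neither age nor sex, nor the time from tamoxifen to harvest. The deletion is limited to cells in which the keratin 14 promoter was active with Cre activated, and to cells derived from them. Cells of other origin in the isolate keep Lama3.

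Lama3 encodes the alpha chain of laminin 332, which anchors basal keratinocytes to the basement membrane. Dividing cells of the epidermis sit mostly in this anchored basal layer and in the lower hair follicle. Before division, cyclin A and cyclin B activate the kinase Cdk1, and cells enter mitosis. Microtubules of the spindle then attach to kinetochores, the protein plates on the centromeres. The spindle checkpoint holds the cell until every kinetochore is attached, after which the ubiquitin ligase APC/C destroys cyclin B and securin. The central spindle and a contractile ring finally separate the daughter cells. Many of these genes are transcribed together late in the cycle, through promoter elements bound by complexes that hold MuvB proteins, with B-Myb and Foxm1 as activators and the DREAM complex as repressor.

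Levels are given as CPM, counts scaled to library size with TMM factors. A gene is said to have fallen or risen where edgeR's quasi-likelihood test gave a Benjamini-Hochberg adjusted p under 0.05 over all genes tested (edgeR is the source of adjusted p-values where no tool is given). Fold changes are on the log2 scale, knockout relative to control, each with its standard error (SE). Total counts were 20126395 to 28473479 per library, and single members held 58 to 3178 counts per library. Lama3 itself was measured at 141, 142 and 114 CPM in controls 1 to 3 and at 97.3, 98.9 and 79.2 CPM in knockouts 1 to 3 (log2 fold change -0.53, SE 0.14, adjusted p = 0.0215). All knockouts lay below all controls for this total over the gene, but the counts cover all its exons and not the deleted ones alone, so they do not check the deletion in a single library. The call was lost without control 1 (adjusted p = 0.0620), control 2 (0.0584) or knockout 1 (0.0551). Xist and Ddx3y counts put 1 female among the controls and 2 among the knockouts. Keratin 5, a basal keratinocyte marker, stood at 8174 ± 1364 CPM in control mice and 7349 ± 1297 CPM in knockout mice (SD, n = 3 each).

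Transcripts of the mitotic machinery were lower in the knockout keratinocytes. Of the 37 genes 34 fell, none rose, and Plk1, Kif4 and Prc1 were not called. Of all genes tested 18.8% fell and 17.4% rose. At an unadjusted p under 0.05 all 37 were lower and 0 higher, against 3879 lower and 3543 higher of all 15513 genes tested. DESeq2 and limma-voom also called 0 of the 37 higher. The median log2 fold change of the 37 was -1.27, against -0.02 over all genes tested, and single values ran from -1.87 for Mad2l1 to -0.43 for Kif4. A fall below -1 on the log2 scale was seen for 30 of the 37, against 11.0% of all genes tested. In 36 of the 37 every knockout library lay below every control, as it did in 26.5% of all genes tested, and Plk1 was the exception. In 0 of the 37 every knockout lay above every control, against 25.2% of all genes tested. In bulk samples fewer dividing cells and less RNA per dividing cell cannot be told apart.

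**Figure D1:**
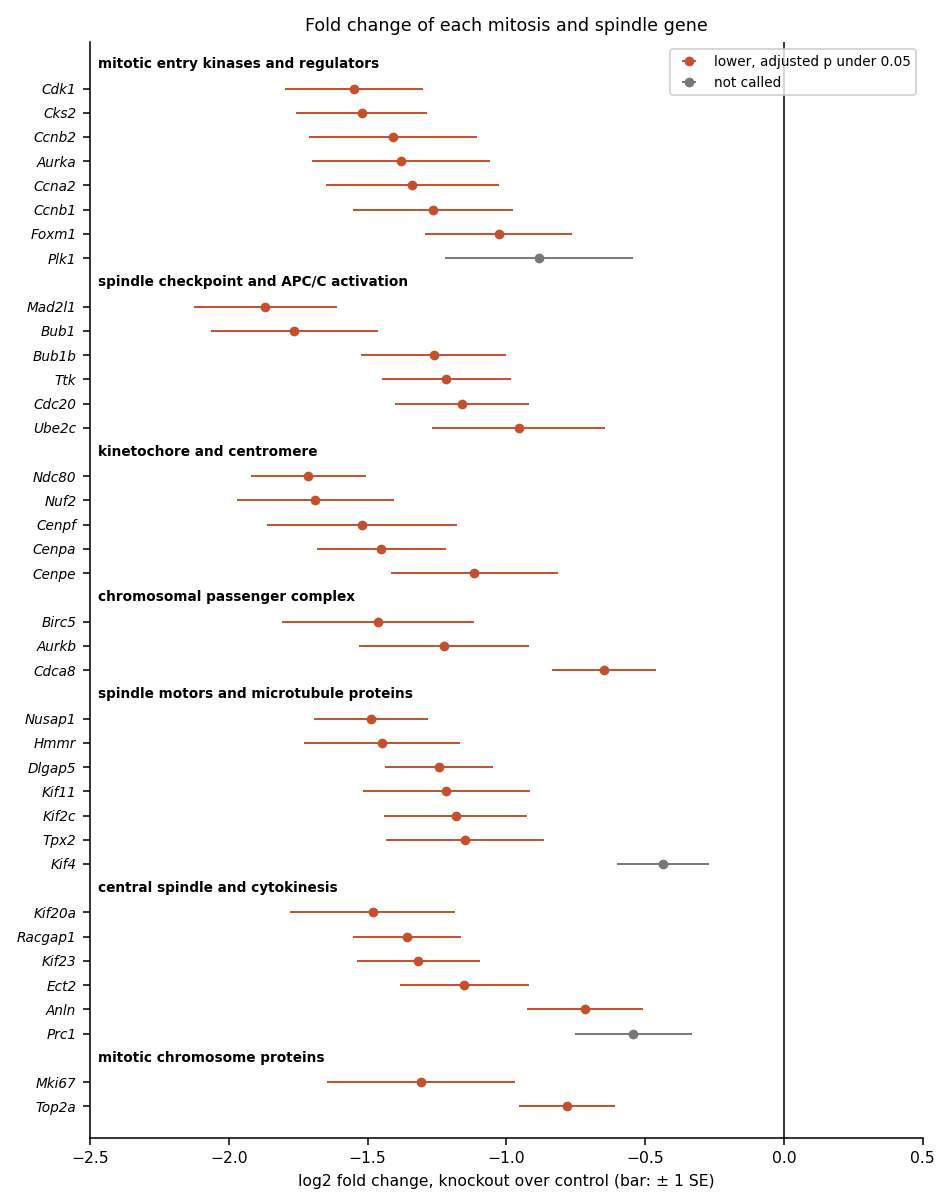
Log2 fold change (knockout over control, 3 libraries each) of each of the 37 genes by role, with bars of ± 1 SE. All 37 values are below 0, and the 3 grey points (Plk1, Kif4 and Prc1) did not pass the test.

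The promoters of these genes were examined next, since the genes moved together. RefSeq promoter windows of GRCm38.p6, from 250 bases before to 50 after the annotated start, were matched by symbol for 31 of the 37; Ccna2, Foxm1, Aurkb, Tpx2, Dlgap5 and Kif20a have no entry in the table used. The windows were searched on both strands for the letters TTTGAA (the cell cycle genes homology region, CHR, bound by MuvB complexes), CCAAT (the box bound by NF-Y), and TTCGCG or TTGGCG (letters found in E2F sites). The reverse of CCAAT can share letters with TTGGCG. The 4 windows below are those of Cdk1 and Ccnb2, 2 genes of mitotic entry, of Mad2l1 with the largest fall and of Kif4 with the smallest change. They were chosen after the values were seen, and capitals mark every match.
Cdk1 (chr10:69352863-69353162, minus strand): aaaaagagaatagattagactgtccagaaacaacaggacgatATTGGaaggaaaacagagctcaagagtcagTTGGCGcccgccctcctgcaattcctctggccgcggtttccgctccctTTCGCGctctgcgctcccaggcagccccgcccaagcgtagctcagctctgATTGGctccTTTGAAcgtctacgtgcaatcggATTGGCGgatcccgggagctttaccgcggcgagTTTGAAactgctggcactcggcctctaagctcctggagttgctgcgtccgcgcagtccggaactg
Ccnb2 (chr9:70421505-70421804, minus strand): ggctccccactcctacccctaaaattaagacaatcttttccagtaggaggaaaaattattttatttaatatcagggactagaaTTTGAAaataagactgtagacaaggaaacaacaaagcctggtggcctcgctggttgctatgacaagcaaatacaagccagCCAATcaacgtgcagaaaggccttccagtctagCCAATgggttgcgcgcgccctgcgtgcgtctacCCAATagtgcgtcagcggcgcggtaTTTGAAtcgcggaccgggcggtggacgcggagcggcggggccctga
Mad2l1 (chr6:66534971-66535270, plus strand): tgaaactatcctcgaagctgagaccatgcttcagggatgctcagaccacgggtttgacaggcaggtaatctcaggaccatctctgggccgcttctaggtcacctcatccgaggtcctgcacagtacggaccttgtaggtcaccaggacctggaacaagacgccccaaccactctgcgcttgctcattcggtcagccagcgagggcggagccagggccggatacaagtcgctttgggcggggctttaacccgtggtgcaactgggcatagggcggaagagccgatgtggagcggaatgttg
Kif4 (chrX:100625815-100626114, plus strand): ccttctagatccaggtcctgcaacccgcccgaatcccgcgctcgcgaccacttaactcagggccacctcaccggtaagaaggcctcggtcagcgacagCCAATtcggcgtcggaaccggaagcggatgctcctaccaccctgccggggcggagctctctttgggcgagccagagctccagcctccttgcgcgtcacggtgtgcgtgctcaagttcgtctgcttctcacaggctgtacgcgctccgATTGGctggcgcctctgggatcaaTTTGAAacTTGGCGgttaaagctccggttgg
Cdk1 holds CHR letters at positions -71 and -15 from the start, CCAAT on the reverse strand at -208, -80 and -48, and 3 E2F-like matches. Ccnb2 holds CCAAT at -87, -54 and -21, spaced at an equal distance, with CHR letters at 4 and -167. Kif4 holds all 3 motifs and Mad2l1 none, as was true of Birc5 and Nusap1 among the 31. RefSeq starts can differ from those of the gene annotation used for symbols. The Mad2l1 window ends at 66535270, before the gene start at 66535390 in that annotation. The windows of Kif2c, Cdca8 and Kif4 lie inside their genes as annotated there. A window without a motif is thus not proof of a promoter without it. CHR letters stood in 23 of the 31 windows (74.2%), against 14.6% of 11014 tested genes with a window and 20.2% of all 27025 genes with a RefSeq window. CCAAT stood in 24 (77.4%), against 42.4% of the tested genes and 41.1% of all. Both together stood in 20 (64.5%), against 7.17% and 8.97%. E2F-like letters stood in 8 (25.8%), against 20.5% and 12.1%. The other mitosis genes described below lay between for CHR and CCAAT. Of 94 with a window, 41 (43.6%) held CHR letters, 57 (60.6%) CCAAT and 29 (30.9%) both. E2F-like letters stood in 30 (31.9%) of these 94. Among 29 DNA replication genes with a window CCAAT was again the most frequent, in 19 (65.5%). CHR and E2F-like letters changed places there, with CHR letters in 4 (13.8%) and E2F-like letters in 17 (58.6%). Within the 31, genes with CHR letters had a median log2 fold change of -1.22 (n = 23) and genes without them -1.50 (n = 8). These matches describe letters in a window and no binding was measured.

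**Figure D2:**
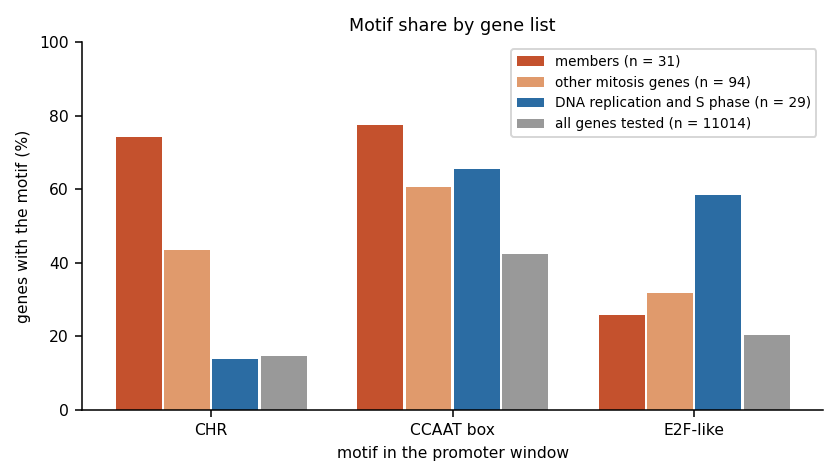
Percent of genes whose promoter window holds each motif on either strand, for the mitosis and spindle genes, the other mitosis genes, DNA replication genes and all genes tested. CHR letters stand in 74.2% of the first list and in 14.6% of all genes tested.

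Among the 8 genes of mitotic entry 7 fell, with a median log2 fold change of -1.36. Cdk1, the kinase that starts mitosis (chr10:69335146-69352938, minus strand, GRCm38), stood at 32.8, 28.4 and 40.5 CPM in controls 1 to 3 and at 15.6, 8.06 and 11.2 CPM in knockouts 1 to 3. The lowest control was above the highest knockout, and Cdk1 fell by 1.55 (SE 0.25, adjusted p = 0.00446). Cks2, a small subunit that helps the kinase bind its substrates, was measured at 40.6, 25.5 and 34.0 CPM in control mice and 12.2, 8.41 and 14.3 CPM in knockout mice (-1.52, SE 0.24, adjusted p = 0.00412). Its groups did not overlap either, though here knockout 3 was the highest knockout. The cyclins that activate Cdk1 moved with it. Ccna2, cyclin A2, was measured at 26.2, 32.6 and 40.7 CPM in control mice and 20.1, 9.77 and 9.58 CPM in knockout mice (-1.34, SE 0.31, adjusted p = 0.0151). Ccnb1, cyclin B1, stood at 21.02, 20.8 and 23.6 CPM in control mice and 13.8, 6.11 and 7.37 CPM in knockout mice (-1.27, SE 0.29, adjusted p = 0.0140). Both showed knockout 1 nearest to the controls. Of the exon bases of Ccna2 12.5% overlap exons of Exosc9 on the opposite strand (mean 30.7 CPM, log2 fold change -0.10). Ccnb2, cyclin B2, fell by 1.41 (SE 0.30) and Aurka, the kinase of the spindle poles, by 1.38 (SE 0.32). Aurka was even across control mice at 8.70, 9.01 and 8.92 CPM and spread across knockout mice at 5.37, 2.55 and 2.36 CPM. Foxm1, the transcription factor that activates many genes of this list, fell by 1.03 (SE 0.26), a call lost without control 3 (adjusted p = 0.0630) or knockout 2 (0.0637).

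Plk1, the polo-like kinase that acts from mitotic entry to cytokinesis, was the member whose groups overlapped. It was measured at 5.64, 8.53 and 9.43 CPM in control mice and 6.51, 3.04 and 3.30 CPM in knockout mice. Knockout 1 lay above control 1, and the log2 fold change was -0.88 (SE 0.34, adjusted p = 0.0753). Plk1 was called lower without knockout 1 (adjusted p = 0.0259), with upper-quartile factors (0.0460) and with DESeq2 (0.0390).

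**Figure D3:**
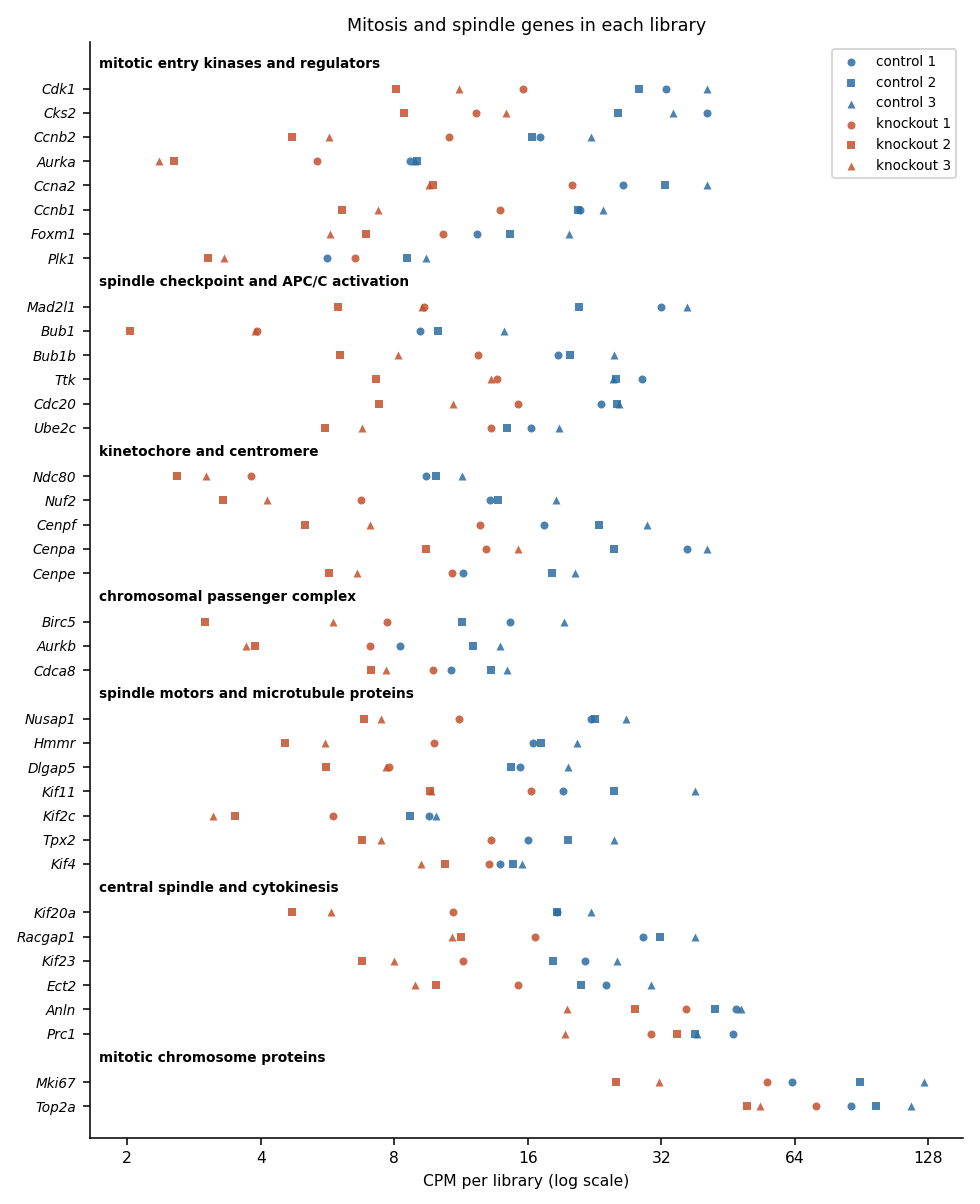
CPM of each gene in each library on a log scale, by role, with controls in blue and knockouts in red and the marker shape giving the replicate. Plk1 is the gene whose groups overlap, with knockout 1 at 6.51 CPM above control 1 at 5.64 CPM.

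All 6 genes of the spindle checkpoint and of APC/C activation fell, with a median of -1.24. Mad2l1 encodes Mad2, the checkpoint protein that blocks the APC/C activator Cdc20 (chr6:66535390-66547220, plus strand). It was measured at 32.04, 20.9 and 36.7 CPM in control mice and 9.35, 5.97 and 9.26 CPM in knockout mice. With -1.87 (SE 0.26, adjusted p = 0.00283) it had the largest fall of all 37 genes. Bub1, a checkpoint kinase of the kinetochore, stood at 9.13, 10.1 and 14.2 CPM in control mice and 3.93, 2.02 and 3.88 CPM in knockout mice, and fell by 1.76 (SE 0.30). Bub1b, the inhibitor BubR1, fell by 1.26 (SE 0.26) and Ttk, the kinase Mps1, by 1.22 (SE 0.23). Their target Cdc20 fell by 1.16 (SE 0.24). Ube2c, the ubiquitin-conjugating enzyme that works with APC/C, fell by 0.96 (SE 0.31, adjusted p = 0.0452), and 22.8% of its exon bases lie in exons of Tnnc2 too. The call of Ube2c was lost without control 1 (adjusted p = 0.0855), control 2 (0.0637), control 3 (0.117), knockout 2 (0.110) or knockout 3 (0.120). It was also lost with no filter on low counts (0.0518) and with sex as a covariate (0.0515).

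All 5 kinetochore and centromere genes fell, with a median of -1.52. Ndc80, the microtubule-binding protein of the outer kinetochore (chr17:71496100-71526857, minus strand), stood at 9.43, 9.96 and 11.4 CPM in control mice and 3.81, 2.58 and 3.01 CPM in knockout mice. The groups were far apart for their spread, and Ndc80 had the smallest adjusted p of the 37 (-1.71, SE 0.21, adjusted p = 0.00184). Nuf2, its partner in the same complex, fell by 1.69 (SE 0.28). Cenpa, the histone variant that marks the centromere, was measured at 36.6, 25.1 and 40.7 CPM in control mice and 12.9, 9.42 and 15.2 CPM in knockout mice (-1.45, SE 0.23, adjusted p = 0.00438). Cenpf, a large protein of the outer kinetochore, fell by 1.52 (SE 0.34). Cenpe, the kinesin that moves chromosomes to the spindle equator, fell by 1.12 (SE 0.30). The Cenpe call was lost without control 2 (adjusted p = 0.0595), control 3 (0.0720), knockout 2 (0.0692) or knockout 3 (0.0665), with sex as a covariate (0.0560) and with the replicate block (0.0612).

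The chromosomal passenger complex corrects faulty attachments and later directs cytokinesis. All 3 of its listed genes fell, with Aurkb, its kinase, at -1.22 (SE 0.31). Birc5, survivin, stood at 14.6, 11.4 and 19.3 CPM in control mice and 7.70, 3.00 and 5.81 CPM in knockout mice (-1.46, SE 0.35, adjusted p = 0.0157). Cdca8, borealin, changed less. It was measured at 10.8, 13.2 and 14.4 CPM in control mice and 9.77, 7.09 and 7.66 CPM in knockout mice (-0.65, SE 0.19, adjusted p = 0.0297). Without control 3 or without knockout 2, Birc5 alone of these 3 was called. The adjusted p of Aurkb was then 0.0574 and 0.0597, and that of Cdca8 0.0990 and 0.0949. Cdca8 also lost its call without control 2 (0.0689) or knockout 3 (0.0716), with the replicate block (0.0611), with sex as a covariate (0.0622) and when libraries were scaled to basal keratinocyte genes (0.133).

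Of the 7 spindle motors and microtubule proteins 6 fell, with a median of -1.22. Nusap1, which bundles microtubules around chromosomes, was measured at 22.2, 22.7 and 26.6 CPM in control mice and 11.2, 6.84 and 7.48 CPM in knockout mice (-1.49, SE 0.21, adjusted p = 0.00277). Kif11, the kinesin that pushes the spindle poles apart, stood at 19.2, 25.1 and 38.2 CPM in control mice and 16.2, 9.63 and 9.69 CPM in knockout mice (-1.22, SE 0.30, adjusted p = 0.0186). Control 1 and knockout 1 lay close together for Kif11, and the call was lost without knockout 2 (adjusted p = 0.0601) or knockout 3 (0.0525). Hmmr and Dlgap5, spindle assembly factors, fell by 1.45 (SE 0.28) and 1.24 (SE 0.19). Kif2c, a kinesin that takes microtubules apart, fell by 1.18 (SE 0.26). Tpx2, the activator of Aurora A, fell by 1.15 (SE 0.28), and its call was lost without control 3 (adjusted p = 0.0545), knockout 2 (0.0528) or knockout 3 (0.0507).

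Kif4, a chromosome-bound kinesin on the X chromosome (chrX:100625737-100727214, plus strand), had the smallest change of the 37. It was measured at 13.8, 14.8 and 15.6 CPM in control mice and 13.1, 10.4 and 9.18 CPM in knockout mice, so that all knockouts lay below all controls by a small margin. The log2 fold change was -0.43 (SE 0.17, adjusted p = 0.0740). Kif4 was called lower without knockout 1 (adjusted p = 0.0481) and with upper-quartile factors (0.0261). Of its annotated exon bases 15.1% overlap exons of Pdzd11 on the opposite strand, which was measured at a mean of 51.8 CPM with a log2 fold change of -0.21. Whether the authors' counting used strand is not given in the sources used here, and the part of such overlaps in the result was not tested.

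Of 6 genes of the central spindle and cytokinesis 5 fell, with a median of -1.23. Racgap1, the GTPase activator of the centralspindlin complex, stood at 29.1, 31.9 and 38.1 CPM in control mice and 16.6, 11.3 and 10.8 CPM in knockout mice (-1.36, SE 0.20, adjusted p = 0.00308). Its motor partner Kif23 fell by 1.32 (SE 0.22), and Ect2, the RhoA activator that centralspindlin recruits, by 1.15 (SE 0.23). Kif20a, a kinesin of the midzone, fell by 1.48 (SE 0.30), with 29.3% of its exon bases shared with Cdc23 on the opposite strand. Anln, anillin, the scaffold of the contractile ring, was measured at 47.2, 42.3 and 48.3 CPM in control mice and 36.4, 27.9 and 19.6 CPM in knockout mice (-0.72, SE 0.21, adjusted p = 0.0311). Its fall was smaller than the median of the list, and the call was lost without control 1 (adjusted p = 0.0707), control 3 (0.0774) or knockout 2 (0.0778).

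Prc1, which crosslinks the microtubules of the midzone, was not called. It was measured at 46.3, 38.1 and 38.6 CPM in control mice and 30.3, 34.8 and 19.4 CPM in knockout mice (-0.54, SE 0.21, adjusted p = 0.0770). Knockout 2, the lowest library for most of the list, was the highest knockout for Prc1. Prc1 was called lower without knockout 2 (adjusted p = 0.0477), under sex as a covariate (0.0115) and under upper-quartile factors (0.0323). Prc1 shares 11.1% of its exon bases with Rccd1 on the opposite strand (mean 11.2 CPM, log2 fold change -0.21). Of the 37 genes 10 share exon bases with another gene of the table, 5 of them over 10% with 1 gene, and 27 share none.

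Both mitotic chromosome genes fell, with a median of -1.04. Mki67, the proliferation marker Ki-67 that coats mitotic chromosomes, stood at 63.0, 89.6 and 125 CPM in controls 1 to 3 and at 55.5, 25.3 and 31.6 CPM in knockouts 1 to 3. The controls spread widely and control 1 was close to knockout 1, so its fall of 1.31 carried a large error (SE 0.34, adjusted p = 0.0223). The Mki67 call was lost without control 2 (adjusted p = 0.0548), control 3 (0.0655), knockout 2 (0.0594) or knockout 3 (0.0707), and with no filter on low counts (0.0993). Top2a, the topoisomerase that untangles sister chromosomes, was measured at 85.7, 97.8 and 117 CPM in control mice and 71.5, 50.0 and 53.4 CPM in knockout mice (-0.78, SE 0.17, adjusted p = 0.0124). Its call held without each library in turn. On a scale per exon length, mean CPM per kb in the controls was highest for Cks2 (48.2), Cdc20 (13.3), Ccnb2 (12.1), Top2a (11.1) and Mki67 (9.20), and in the knockouts it was 16.8, 5.97, 4.58, 6.47 and 3.72. The length was that of all annotated exons merged, so genes with long, rarely used exons are placed too low in this order.

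The highest library of each group was the same across most of the genes. Control 3 was the highest of all 6 libraries in 33 of the 37 genes, control 1 in 3 and control 2 in 1. The lowest control was control 1 in 22 genes, control 2 in 14 and control 3 in 1. Knockout 1 was the highest knockout in 34 genes and lay above the mean of its group in all 37, by a median of 0.48 on the log2 scale. Knockout 2 was the lowest of all 6 libraries in 27 genes and knockout 3 in 10. Summed over the 37 genes the level was 862, 879 and 1114 CPM in controls 1 to 3 and 559, 342 and 372 CPM in knockouts 1 to 3. The median SD within groups of log2(CPM + 0.5) was 0.38 over the 37 genes and 0.20 over all genes tested. As a share of all counts they held 0.0843%, 0.0917% and 0.111% in controls 1 to 3 and 0.0546%, 0.0344% and 0.0369% in knockouts 1 to 3. Since the genes moved together between mice, they are not 37 independent measurements.

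**Figure D4:**
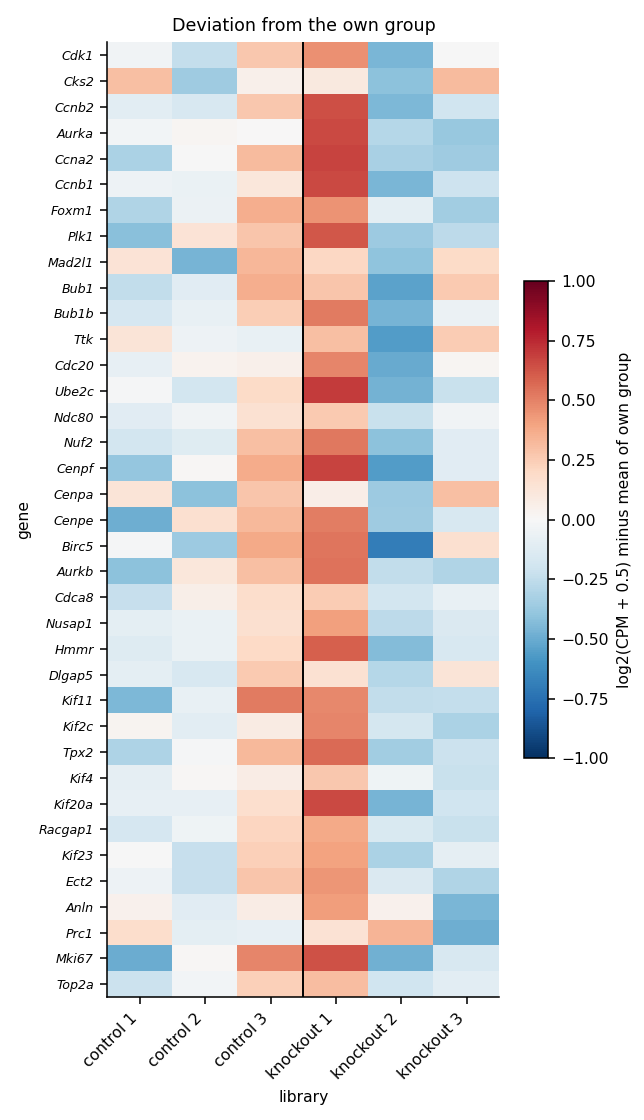
Deviation of log2(CPM + 0.5) from the mean of the library's own group, for each gene (rows) and library (columns), with red above and blue below. Knockout 1 is above its group mean in all 37 genes, and control 3 in 35.

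Markers of other cell types were read in the same libraries. Of 17 tested markers of hair matrix, shaft and sheath 14 fell and 1 rose, with a median of -6.12 (20 were listed, of which 19 were in the table). The 1 that rose, Dlx3 (named after its value was seen), was not called without knockout 1 or knockout 2. Their summed level was 96.4 to 335 CPM in control mice and 36.2 to 50.5 CPM in knockout mice, Krt81 and Shh having 0 counts in every knockout. Krt71, an inner root sheath keratin, stood at 54.8 ± 38.8 CPM in control mice and 0.478 ± 0.170 CPM in knockout mice. Hair matrix cells divide fast, and these markers fell beside the genes described here; their part in the result was not tested. In controls 1 to 3 the hair matrix, shaft and sheath markers summed to 96.4, 335 and 201 CPM. The 37 genes summed to 862, 879 and 1114 CPM in the same libraries. Of 7 markers of hair follicle stem and outer sheath cells 3 rose and none fell. Their sums were 2227 to 2522 CPM in control mice and 3266 to 4882 CPM in knockout mice. Without control 3 or knockout 1 none of these markers was called. Of 12 T cell markers 10 fell and 1 rose. Their summed levels were 236 to 467 CPM in control mice and 164 to 224 CPM in knockout mice. The 1 T cell marker that rose, Trbc1 (also named after its value was seen), was not called without control 1, control 2, control 3, knockout 1 or knockout 3. Every T cell marker had counts in both groups. Of 6 melanocyte markers 5 fell, with summed levels of 81.1 to 210 CPM in control mice and 53.5 to 59.1 CPM in knockout mice. Without knockout 2, or with no filter on low counts, 3 of the 6 were called lower. Of 5 erythroid markers 4 fell, with summed levels of 13.3 to 23.2 CPM in control mice and 1.82 to 3.00 CPM in knockout mice. With a filter of 1 CPM in 3 libraries 2 of them were called lower. Of 8 sebocyte markers 4 fell, with overlapping sums of 1092 to 1510 CPM and 629 to 1128 CPM. Of 7 neutrophil markers the 3 tested rose. Their list summed to 7.71 to 35.9 CPM in control mice and 154 to 1512 CPM in knockout mice. S100a9 had the highest CPM of this list, while Ly6g, Elane and Retnlg had 0 counts in every library. Of 7 tested macrophage markers 3 rose, and of 7 fibroblast markers 2 fell. Of 7 Langerhans and dendritic cell markers 1 fell. None was called lower without control 1, control 3, knockout 1, knockout 2 or knockout 3. The same held for limma-voom, no filter, the replicate block and scaling to basal genes. Without control 2, 4 were called lower, and with DESeq2 2 were. Which cells made the transcripts of each list, and the part of those cells in the result, was not tested. Suprabasal keratinocyte genes, made by cells that have left the cycle, stood at 15096 to 17693 CPM in control mice and 31439 to 47370 CPM in knockout mice. The sums of basal keratinocyte genes overlapped between groups, at 17190 to 23671 CPM and 16400 to 22342 CPM. Of these 11 genes 3 rose and 1 fell, and without knockout 1 or knockout 2, 1 rose and none fell. Per 1000 CPM of basal genes, the 37 genes summed to 43.2, 37.1 and 64.8 CPM in control mice and 25.0, 17.7 and 22.7 CPM in knockout mice. The groups thus stayed apart on this scale, and with libraries scaled to basal genes 33 of the 37 were called lower.

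Other genes of mitosis were counted from lists covering 113 genes, all of them tested. Of these 65 fell, 3 rose and 45 were not called, with a median log2 fold change of -0.70. Without control 3, the number that fell was 40. Kinetochore genes held the most falls, 24 of 30. Among them Cenpk, of the inner kinetochore, fell by 2.26 (SE 0.26) from 9.35 ± 1.51 to 1.96 ± 0.546 CPM, and Pmf1, of the MIS12 complex, fell by 0.83 (SE 0.11). Of 20 spindle proteins 13 fell, with Stmn1, the microtubule-destabilizing stathmin, at -1.50 (SE 0.12) and the kinesin gene Kif18a at -1.28 (SE 0.16). Of 8 further cytokinesis genes 5 fell, Depdc1a (-2.08, SE 0.27) and Shcbp1 (-1.61, SE 0.22) among them. Of 16 kinases and regulators of entry 8 fell, and the smallest p-values were those of the kinase gene Pbk (-1.84, SE 0.26) and of Cks1b, the paralog of Cks2 (-0.89, SE 0.14). Of 8 condensin genes 4 fell, with Ncapg at -1.53 (SE 0.27) and Smc2 at -0.94 (SE 0.19).

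Of 14 genes of cohesion and separase 5 fell, with a median of -0.15. Those that fell included Esco2, the acetyltransferase that locks cohesin in S phase (-1.76, SE 0.22), and Sgo1, the guardian of centromeric cohesion (-1.60, SE 0.26). The core cohesin genes Rad21 (0.09, SE 0.13) and Smc3 (0.24, SE 0.12), chosen after their values were seen, were not called. Of 17 APC/C subunits and inhibitors 6 fell and 1 rose, with a median of -0.29. Anapc10 fell by 1.08 (SE 0.21) and Cdc26 by 0.75 (SE 0.14). The 3 genes that rose were Cenpt, Nde1 and Anapc2, at 0.52, 0.46 and 0.37, and were named after their values were seen. None of the 113 rose with libraries scaled to basal genes, with upper-quartile factors, or without control 1, knockout 2 or knockout 3, and 1 rose without control 2 or control 3. Without control 3 the numbers that fell were 15 for the kinetochore, 8 for the spindle, 3 for cytokinesis, 5 for entry, 2 for condensin, 3 for cohesion and 4 for APC/C. In the settings that follow only lists with the largest relative shifts are named, and other lists shifted by less. The kinetochore number, for example, was 17 without knockout 2 and 19 without knockout 3. Without knockout 2 the numbers that fell were 8 for the spindle, 3 for cytokinesis and 3 for cohesion. Without knockout 3 they were 8 for the spindle and 3 for cytokinesis. Without control 2 they were 3 for cytokinesis and 5 for entry, and without knockout 1 the number for APC/C was 3. With libraries scaled to basal genes they were 3 for cytokinesis, 5 for entry and 2 for APC/C, and the replicate block or sex as a covariate left 3 for cytokinesis.

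**Figure D5:**
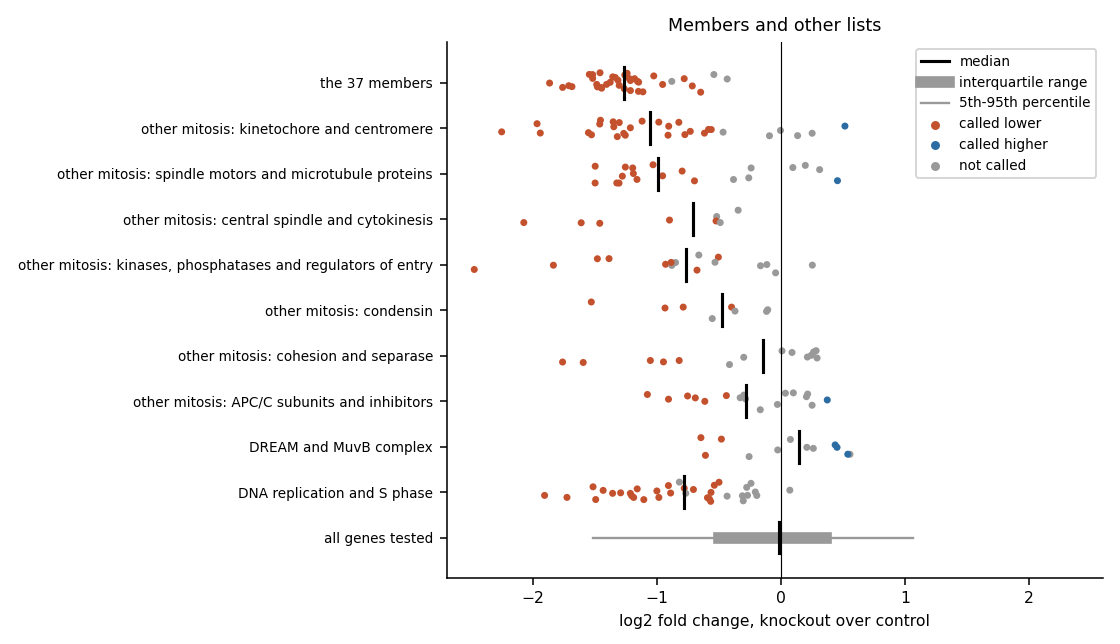
Log2 fold change (knockout over control) of each tested gene in the 37 mitosis and spindle genes, 7 further mitosis lists, the DREAM and MuvB list and DNA replication genes, with genes that fell in orange, genes that rose in blue and others in grey, list medians as black bars, and the interquartile range and 5th to 95th percentile of all genes tested below. The median of the 37 genes is -1.27 and that of all genes tested -0.02.

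Of 12 genes of the DREAM and MuvB complexes, which bind the promoters of mitotic genes, 3 rose and 3 fell, with a median of 0.14. Among all genes tested 17.4% rose and 18.8% fell, so these counts are near the background. Rbbp4, a histone-binding subunit shared with many chromatin complexes, fell by 0.65 (SE 0.12), and Lin54, the MuvB subunit that contacts CHR letters, rose by 0.54 (SE 0.13). The others, named after their values were seen, were the repressor genes E2f4 (0.45, SE 0.11) and Rbl2 (0.44, SE 0.14), which rose, and Rbl1 (-0.48, SE 0.12) and E2f5 (-0.61, SE 0.16), which fell. Without control 3 none of the 12 rose and 1 fell, with Lin54 at an adjusted p of 0.0532, and with libraries scaled to basal genes none was called in either direction. With upper-quartile factors 1 rose. Mybl2, which encodes B-Myb, was at -0.04 (SE 0.25) and not called.

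Of 35 genes of DNA replication and S phase 24 fell and none rose, with a median of -0.78. At an unadjusted p under 0.05, 26 were lower and 0 higher, against 3879 lower and 3543 higher of all 15513 genes tested. Gins2, of the replicative helicase, fell by 1.73 (SE 0.20) from 20.6 ± 1.84 to 6.22 ± 1.53 CPM, and Tyms, thymidylate synthase, by 1.52 (SE 0.17). With libraries scaled to basal genes 15 of the 35 fell. The summed level of the 37 mitosis genes per CPM of these 35 genes was 0.876, 0.856 and 1.05 in controls 1 to 3 and 0.774, 0.570 and 0.594 in knockouts 1 to 3. The knockouts lay below the controls on this ratio too, with knockout 1 nearest to them.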

How the data were processed

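RNA-seq was measured in keratinocytes of 3 control and 3 knockout mice, grouped by sample title. The authors deposited raw counts per Ensembl gene in 1 table. The submitters' processing notes name GRCm38 as the build and list Cuffdiff 1.3.0, TopHat 1.3.3 and featureCounts 1.4.6. The annotation release, strand setting and handling of multiply mapped reads are not given in the sources used here, so that reads shared by overlapping or near-identical genes are uncertain.

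Symbols came from GENCODE M21 (98.1% of 45513 identifiers). Counts were tested with edgeR 4.0.16 under R 4.3.3 (TMM, filterByExpr by group, robust dispersion and quasi-likelihood fits, group as the only term, all 6 libraries). The filter kept 15513 of 25742 identifiers with any count. CPM used the counts of tested genes times the TMM factor, and means are given ± SD. The fit was tested on simulated data. The labels name separate mice, and no 2 columns of a group were copies.

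The members, gene lists and tests were chosen with earlier results of these data known. Per-library values are given for the member with the smallest p and the highest mean CPM in each of 7 roles, members not called, the largest and smallest fold changes, Mki67, Cdk1 and Ccnb1. Those of Aurka and Bub1 are given outside this rule. Of each list of other mitosis, DREAM and MuvB, and replication genes, the 2 called genes with the smallest p are named. For lists of cell type markers, summed levels, counts of calls or both are given. Of basal, hair matrix and neutrophil markers the one with the highest CPM is named too. Alternatives were DESeq2 size factors, upper-quartile factors and scaling to basal keratinocyte genes in edgeR, no filter, at least 1 CPM in 3 libraries, the DESeq2 1.42.0 test, limma-voom (limma 3.58.1), the replicate block, sex as a covariate, and each library left out in turn.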

Additional observations from a re-analysis of the deposited data

How the results depend on the processing

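All 37 mitosis and spindle genes kept a negative log2 fold change under each of 15 alternatives, with a median between -1.55 and -1.08. Of the 34 that fell, 25 were called lower under every alternative. The number called lower was 34 with DESeq2 size factors, limma-voom or a filter of 1 CPM, 35 with DESeq2, 37 with upper-quartile factors, 33 with scaling to basal keratinocyte genes, 32 with no filter or sex as a covariate, and 26 to 36 without single libraries. Upper-quartile factors moved the median of all genes to -0.17 and the share of higher genes among all called genes to 30.6%, from 48.0%. The replicate block gave 32, but same-numbered libraries did not pair: their deviations correlated at -0.16, -0.08 and 0.43, and not every library correlated best with its own number. Of the 113 other mitosis genes, 65 fell, and 40 to 59 did so without single libraries. The number that rose was 3, with 0 under upper-quartile factors or scaling to basal genes, 5 with DESeq2 and 0 to 2 without single libraries. Scaling to basal genes called 15 replication genes lower, and 0 DREAM and MuvB genes in either direction. For that last list 1 gene rose with upper-quartile factors, and 1 to 3 fell and 0 to 4 rose without single libraries. Lama3 was at -0.46 and not called when scaled to basal genes (adjusted p = 0.123), and ranged from -0.62 to -0.42 without single libraries. Where no reason is given, the cause was not tested. Counts of 58 or more per member leave the spread between mice as the main limit.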
